A study of Homo sapiens and Mus musculus with 25 samples.

Results

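The stretch described is the central domain of hFAST, nucleotides 107 to 323 of the 547 nucleotides in the SHAPE-MaP table, 217 nucleotides in all. It was chosen by the measured reactivities, since its limits are the outer ends of the longest helix in a fold of the whole RNA that used them. Each reactivity is the NAI rate less the DMSO rate, relative to the DC rate, so all 3 libraries entered the choice. The DMSO, NAI and DC rates are therefore given here mainly as a description. The stretch was compared with the 308 remaining nucleotides that had at least 1000 reads in each library. H9 is a human embryonic stem cell line, and 1 library was made for each of 3 treatments of its RNA. In the library labelled NAI, RNA was exposed to the acylating reagent NAI at 100 mM for 10 min at 37 °C. In the library labelled DMSO it went through the same steps with the solvent alone. In the library labelled DC, RNA was denatured in 50% formamide at 95 °C before it was modified. The labels name no genetic change in these cells, and with 1 library each no value below has a replicate check. The table names its columns background, reagent and denatured, and the NAI rates were mostly below the DMSO rates. Were background and reagent exchanged, every direction given here between NAI and DMSO would turn. Each rate and depth labelled NAI or DMSO would then belong to the other library, and the comparison of DC with DMSO would be one with the reagent library.

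FAST is another name of FOXD3-AS1, a long noncoding RNA whose gene lies beside that of the pluripotency factor FOXD3. In human embryonic stem cells it is known as a cytoplasmic RNA that binds the ubiquitin ligase adaptor beta-TrCP. In SHAPE-MaP, a reagent acylates flexible riboses, which are more often found in loops than in stems, and a reverse transcriptase run with manganese writes a mutation opposite the acylated nucleotide. The mutation rate is the share of reads with a mutation at a nucleotide, the solvent library measures the rate without reagent, and the denatured library measures how a nucleotide reacts when pairing is removed.

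The sequence of the stretch is shown first, from 5′ to 3′ with T for U as in the table, because the fold described next used these letters alone. Capitals mark the loops of the 5 hairpins found when the stretch was folded by itself without reactivities. The hairpins are numbered from the 5′ end.
hFAST nucleotides 107 to 323: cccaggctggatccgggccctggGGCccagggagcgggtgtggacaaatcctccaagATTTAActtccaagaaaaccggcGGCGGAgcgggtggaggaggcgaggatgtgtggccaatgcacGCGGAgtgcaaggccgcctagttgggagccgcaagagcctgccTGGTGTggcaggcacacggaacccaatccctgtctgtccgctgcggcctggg
Hairpin 1, nucleotides 117 to 145: atccgggccctggGGCccagggagcgggt
Hairpin 2, nucleotides 161 to 172: aagATTTAActt
Hairpin 3, nucleotides 181 to 198: accggcGGCGGAgcgggt
Hairpin 4, nucleotides 216 to 245: gtggccaatgcacGCGGAgtgcaaggccgc
Hairpin 5, nucleotides 251 to 296: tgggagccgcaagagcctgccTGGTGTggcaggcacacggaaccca

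G was the most common base of the stretch, at 82 of 217 nucleotides (37.8%), while 84 of the 308 remaining nucleotides were G (27.3%). C made up 28.1% in the stretch and 27.3% elsewhere, A 19.4% and 27.6%, and T 14.7% and 17.9%. The G and C content was 65.9% in the stretch, 70.8% over nucleotides 1 to 106 and 44.2% over nucleotides 324 to 547. Nucleotides 107 to 142 matched the reverse strand of chr1:63322317-63322352 exactly in the RefSeq promoter window of FOXD3, in build GRCh38.p14. These 36 nucleotides lie 250 to 215 bases upstream of the annotated FOXD3 start, and are read in the opposite direction to that gene. The same register came from the window of FOXD3-AS1, whose 50 transcribed bases matched the start of hFAST. Nucleotides 143 to 323 were not placed on the genome here.

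Folded alone with ViennaRNA, the stretch gave a minimum free energy of -108.3 kcal/mol with 75 base pairs. Of these, 53 were GC, 16 AT and 6 GT pairs. They took up 150 nucleotides (69.1%) and left 67 unpaired, namely 26 in hairpin loops, 21 in internal loops or bulges and 20 in multiloops. The pairing probability of a nucleotide, summed over all partners, was at least 0.9 at 127 nucleotides and at most 0.1 at 49. All 75 pairs were also in the fold of all of hFAST without reactivities, in which 0 pairs left the stretch and 54.5% of the remaining nucleotides were paired. That fold also paired nucleotide 107 with 323, the limits of the stretch. Pairs in such folds do not cross, so once the limits pair, none can leave the stretch. The limits were chosen as the ends of a helix, so the shared pairs are no support for a separate domain. The summed probability of pairing outside the stretch was 0.0233 on average and 0.121 at most, and depends on the same choice. The free energy per nucleotide was -0.499 kcal/mol for the stretch, -0.375 for nucleotides 1 to 106 and -0.246 for nucleotides 324 to 547. Length and base composition differ between these 3 segments, and their part in the energies was not tested.

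The outer frame of the fold was a pair of long-range helices. The closing helix joined nucleotides 107 to 115 with 315 to 323 in 9 bp, the longest helix of the stretch, with a mean pairing probability of 0.991 alone and 0.861 in all of hFAST. The inner helix joined nucleotides 146 to 152 with 306 to 312 in 7 bp at 0.936. The arms of both are shown to let their complementarity be read.
Closing helix, 5′ arm, 107 to 115: cccaggctg
Closing helix, 3′ arm, 315 to 323: cggcctggg
Inner helix, 5′ arm, 146 to 152: gtggaca
Inner helix, 3′ arm, 306 to 312: tgtccgc
Hairpin 1 lay between the 5′ arms of these helices. Inside the inner helix the fold split into 2 branches. The first was the helix of nucleotides 155 to 160 with 199 to 204 (6 bp, probability 0.780), which carried hairpins 2 and 3. The second was formed by the helices of 205 to 208 with 302 to 305 (4 bp, 0.842) and of 210 to 213 with 297 to 300 (4 bp, 0.526), and carried hairpins 4 and 5.

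The 5 hairpins differed in how firmly the sequence alone predicted them. Hairpin 4 had 11 bp around the 5-nucleotide loop GCGGA and a mean pairing probability of 0.993. Its 2 helices, 216 to 221 with 240 to 245 and 224 to 228 with 234 to 238, stood at 0.997 and 0.988. Hairpin 5 had 15 bp, 13 of them GC, around the 6-nucleotide loop TGGTGT, at 0.969. Its 7-bp helix of 265 to 271 with 278 to 284 had the highest probability of the helices with at least 4 bp, 0.999, and the 4-bp helix at its base, 251 to 254 with 293 to 296, had 0.984. Hairpin 1 had 11 bp around the 3-nucleotide loop GGC, at 0.971. Hairpin 3 had 5 bp around the 6-nucleotide loop GGCGGA, at 0.898. Hairpin 2 had only 3 bp around ATTTAA, the loop without any G or C, at 0.221, below the 0.8 used to count a helix.

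**Figure D1:**
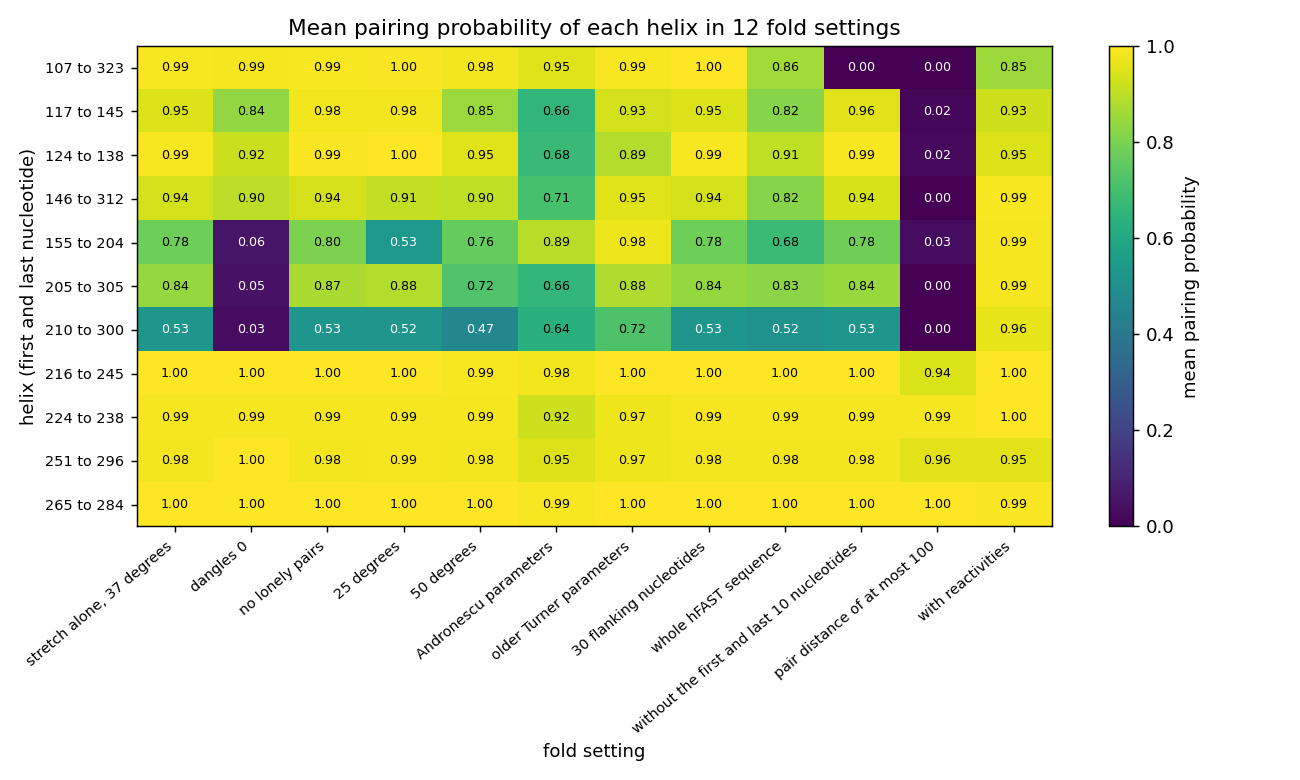
Mean pairing probability of the 11 helices with at least 4 bp (rows, named by their outermost nucleotides) in the main fold and 11 alternative settings (columns). The 4 helices of hairpins 4 and 5 stay at 0.8 or above in all 12 settings, while the helix of nucleotides 210 to 300 reaches 0.8 in 1.

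Across the main fold and 11 alternative settings, the stems of hairpins 4 and 5 kept a mean pairing probability of at least 0.953 and 0.928. Hairpin 1 ranged from 0.0197 to 0.991 and was at or above 0.8 in 10 of the 12 settings. It was lost when pairs were limited to a distance of 100 nucleotides, and stood at 0.670 with the Andronescu energy parameters. Hairpin 3 ranged from 0.122 to 0.927, at or above 0.8 in 8 settings, and the lowest value came with reactivities included. In that setting negative reactivities, 151 of the 216 in the stretch, were set to 0, the value that most favours pairing there. Most nucleotides thus entered it with the same value. Hairpin 2 stayed between 0.000764 and 0.315. The closing helix defined the limits of the stretch in the fold with reactivities, so its probability is no support for it. It was at or above 0.8 in 10 settings, 1 of them with reactivities, and the other 2 removed it by construction, through the distance limit or by leaving out the first and last 10 nucleotides.

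The letters of the closing helix occurred again inside hairpin 1. The 6 bases cccagg stood at 107 to 112 and at 132 to 137, and their complement cctggg at 125 to 130 and 318 to 323. By its letters, the copy at 107 to 112 could therefore pair with either cctggg, and the copy at 318 to 323 with either cccagg. The copies at 125 to 130 and 132 to 137 lie too close to pair with each other over all 6 bases. The pairing of 107 to 112 with 318 to 323 had a probability of 0.991 alone and 0.863 in all of hFAST. That of 107 to 112 with 125 to 130 had 0.000154 alone and 0.0155 in all of hFAST. With pairs of at most 100 nucleotides, where hairpin 1 was lost, it had 0.000269. That of 132 to 137 with 318 to 323 had 0.000183 alone.

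Over the stretch, depth per nucleotide was 12292 to 16882 reads in DMSO (median 13446), 3305 to 6641 in NAI (median 5727) and 13524 to 18594 in DC (median 15721). The remaining nucleotides had medians of 23706, 47682 and 24820.5 reads, so the stretch was shallower in each library and most so in NAI. An NAI rate of 0 at its median depth allows up to 0.0524%. NAI depth fell from 11142 reads at nucleotide 105 to 5759 at nucleotide 106, rose from 5592 to 6348 reads at nucleotide 131, and fell from 5371 to 4449 at nucleotide 242. DMSO and DC depth changed by at most 1.01-fold at nucleotides 131 and 242.

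**Figure D2:**
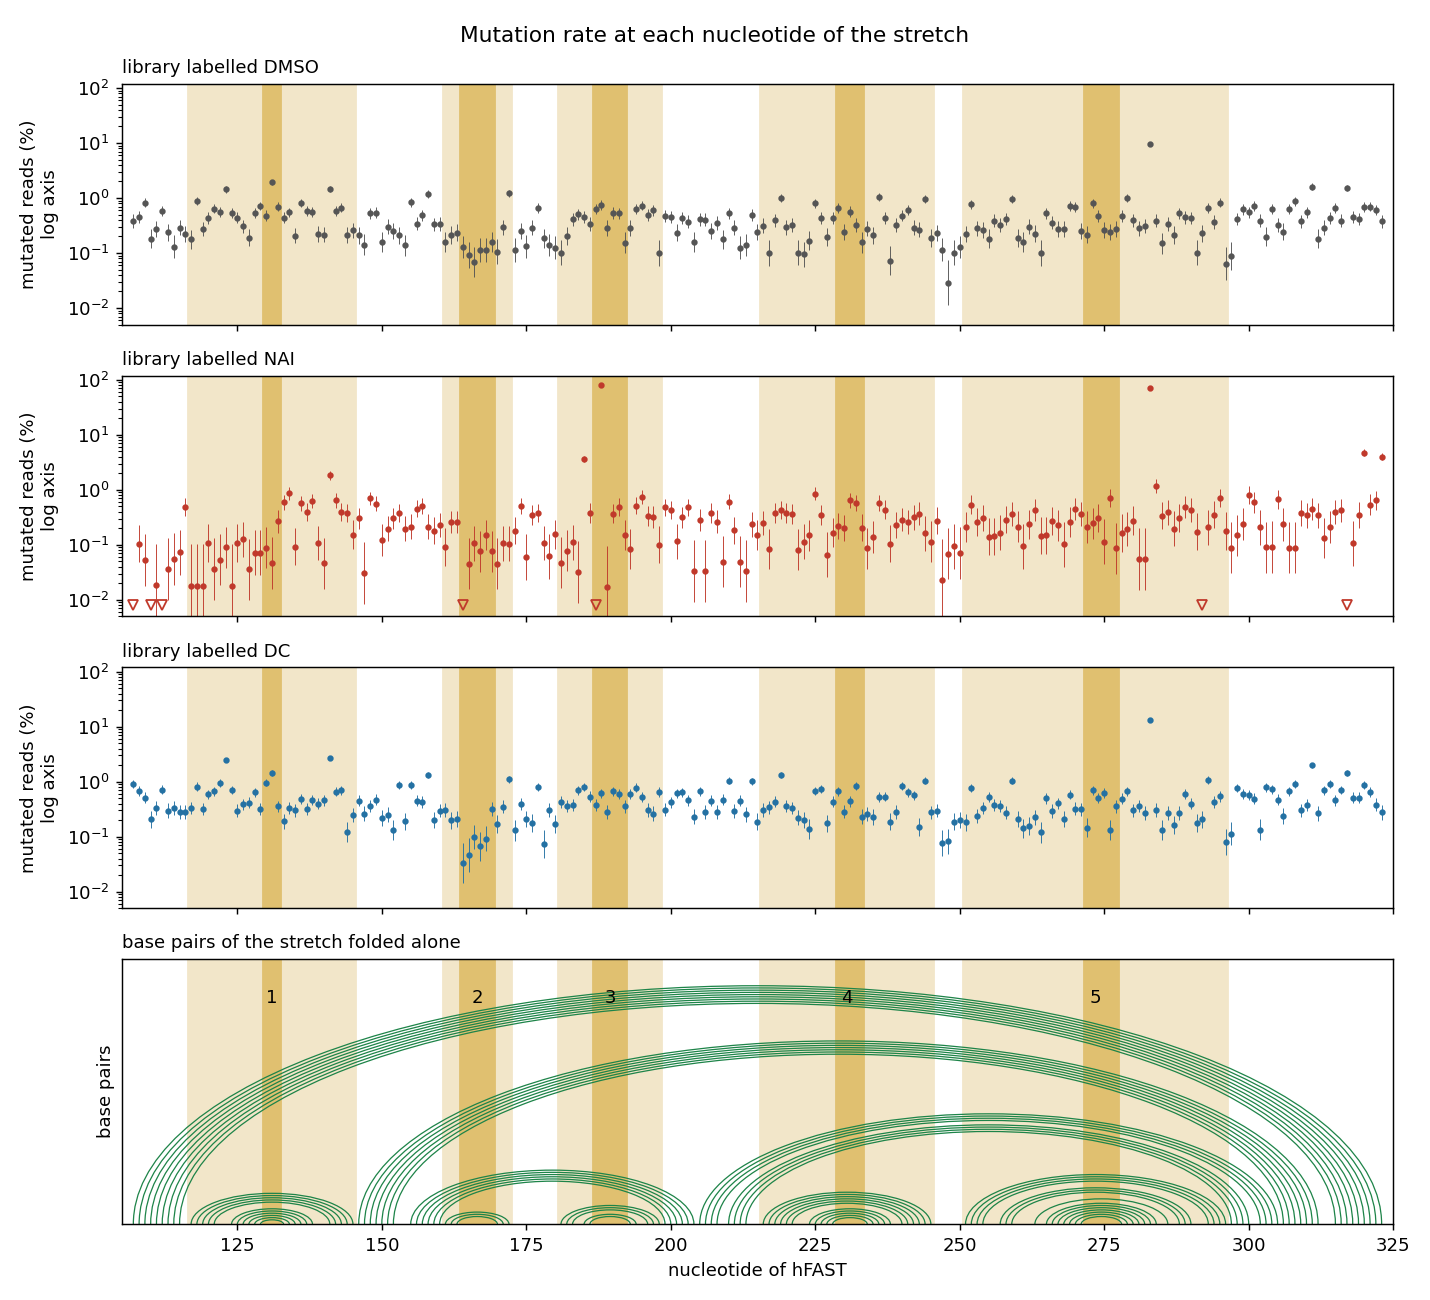
Mutation rate (percent of reads, log axis) at each nucleotide of the stretch in the 3 libraries, with 95% Wilson intervals, and the base pairs of the stretch folded alone as arcs. Open triangles are the 7 nucleotides with 0 mutated NAI reads, light bands are hairpins 1 to 5 and dark bands their loops. NAI rates are low from nucleotide 107 to 131, and nucleotides 188 and 283 stand far above the rest.

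The median mutation rate over the 217 nucleotides was 0.336% in DMSO (0.0287% to 9.43%), 0.208% in NAI (0% to 81.0%) and 0.369% in DC (0.0331% to 13.4%). Over the 308 remaining nucleotides the medians were 0.311%, 0.190% and 0.385%. The library labelled NAI thus had the lowest median in both segments. It had 0 mutated reads at 7 nucleotides of the stretch, namely 107, 110, 112, 164, 187, 292 and 317, whereas DMSO and DC had 0 at none of the 217. Rates ordered nucleotides less alike in the stretch than elsewhere. Spearman's rho between NAI and DMSO was 0.413 over 217 nucleotides and 0.706 over 308, and between DC and DMSO 0.720 and 0.872. The points share libraries and base composition. Depth was lower in the stretch in all 3 libraries, and its part in the lower values was not tested.

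Each pair of libraries was set side by side nucleotide by nucleotide with a two-sided Fisher's exact test on reads with and without a mutation, and p-values were adjusted over the whole table (Benjamini-Hochberg). In the library labelled NAI, 12 nucleotides of the stretch (5.53%) were higher than in DMSO, against 5.68% of the 546 nucleotides tested, and 64 (29.5%) were lower, against 33.7%. Against DC, 15 (6.91%) were higher in NAI and 95 (43.8%) lower, with 9.52% and 45.1% over the table. In DC, 46 nucleotides (21.2%) were higher than in DMSO, against 21.9% of the 547 tested, and 20 (9.22%) were lower, against 9.69%. All 3 libraries entered the choice of the stretch, so these counts are a description from which nothing is read, and no p-value is given for single nucleotides. The tests compare reads of 2 libraries, not 2 conditions, and DMSO and DC each serve in more than one of them.

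**Figure D3:**
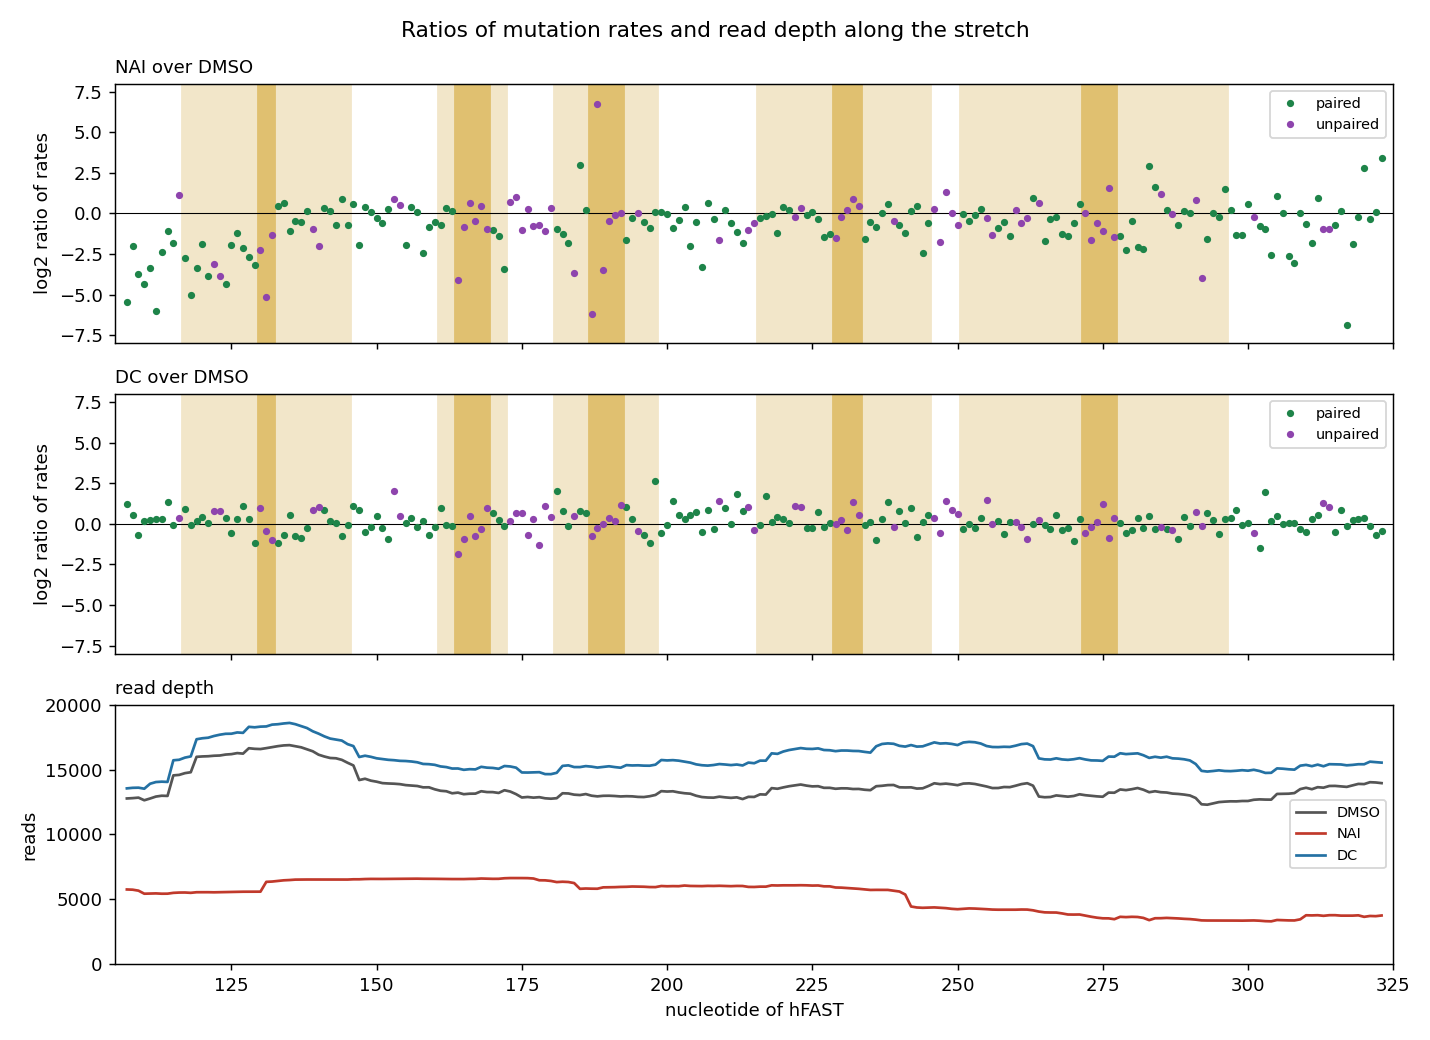
Log2 ratio of mutation rates for NAI over DMSO and for DC over DMSO at each nucleotide, coloured by pairing in the fold of the stretch alone, above the read depth of the 3 libraries. Between nucleotides 107 and 131 the NAI ratios have a median log2 of -3.14, and the NAI depth is below that of DMSO and DC along the whole stretch.

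The NAI rates had a low segment at the 5′ end of the stretch, whose limits were set after the values were seen. From nucleotide 107 to 131, which covers the 5′ arm of the closing helix and hairpin 1 up to its second loop nucleotide, the median rate was 0.0529% in NAI (0% to 0.489%), 0.439% in DMSO and 0.515% in DC. The NAI rate was below that of DMSO at 24 of these 25 nucleotides, and the median log2 ratio was -3.14. These values describe a segment picked for them and support nothing further. Nucleotide 116, a G in a multiloop, was the exception with a higher rate, 0.489% in NAI against 0.219% in DMSO. T118, paired in hairpin 1, was among the 5 nucleotides with the lowest log2 ratio of NAI to DC. It had 0.0182% in NAI, 0.872% in DMSO and 0.818% in DC. From nucleotide 132 to 323 the medians were 0.232% in NAI, 0.327% in DMSO and 0.362% in DC, with a median log2 ratio of NAI to DMSO of -0.44. The change came within the loop of hairpin 1. Nucleotide 131 had 3 mutated reads of 6348 in NAI (0.0473%, 95% Wilson interval 0.0161% to 0.139%), and nucleotide 132 had 17 of 6371 (0.267%, 0.167% to 0.427%). The rise in NAI depth at nucleotide 131 falls at the same place, and its part in the change was not tested.

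The paired arms of hairpin 1 and of the closing helix lay on either side of that change. The 11 paired nucleotides of the 5′ arm of hairpin 1 had a median NAI rate of 0.0360% (0.0180% to 0.125%), and the 11 of its 3′ arm 0.567% (0.0925% to 1.84%). In DMSO the same arms had medians of 0.439% and 0.561%, and in DC 0.415% and 0.334%. The ranges of the arms in NAI overlapped only at their edges. In the closing helix, the 5′ arm had a median NAI rate of 0.0368% (0% to 0.104%) and the 3′ arm 0.427% (0% to 4.71%), beside 0.289% and 0.607% in DMSO. In both, the NAI median of the 3′ arm was above that of the 5′ arm.

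**Figure D4:**
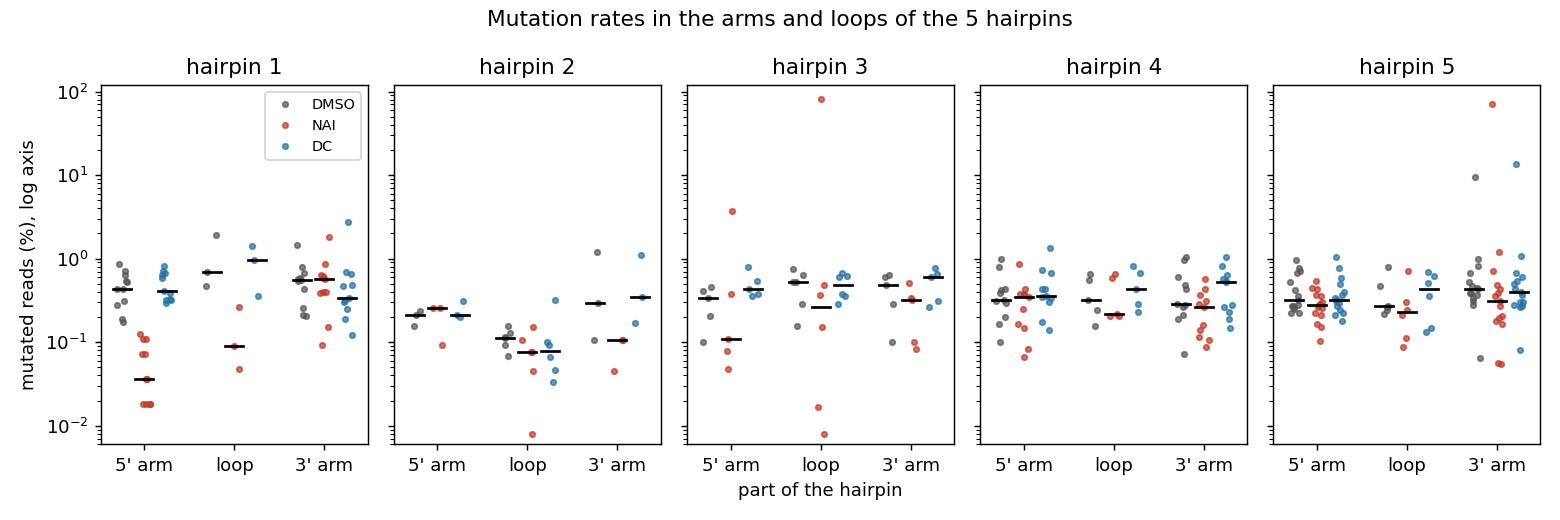
Mutation rates (percent of reads, log axis) in the 5′ arm, the loop and the 3′ arm of hairpins 1 to 5 in the 3 libraries. Points are nucleotides, bars are medians, and rates of 0 are drawn at the bottom of the axis. The NAI median of hairpin 1 is 0.0360% in the 5′ arm and 0.567% in the 3′ arm, and in hairpins 4 and 5 the arms and loops of NAI overlap.

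In NAI, the median rates of the loops of hairpins 2, 4 and 5 lay below those of both their arms. In hairpins 1 and 3 the loop median lay between those of the arms. It was 0.0894% in hairpin 1, beside 0.0360% in the 5′ arm and 0.567% in the 3′ arm. In hairpin 3 it was 0.261%, beside 0.110% and 0.319%. In hairpin 4 the median NAI rate was 0.220% in the loop, 0.346% in the 5′ arm and 0.261% in the 3′ arm. In hairpin 5 it was 0.230% in the loop, 0.276% in the 5′ arm and 0.312% in the 3′ arm. The stems of both hairpins were at or above 0.8 in all 12 fold settings. Hairpin 2, which holds the loop made of A and T only, had a loop median of 0.0759% in NAI, 0.113% in DMSO and 0.0793% in DC, and its arms had 0.259% and 0.106% in NAI. All 3 loop medians lay below those of the whole stretch. Relative to DMSO the order differed. The median log2 ratio of NAI to DMSO in hairpin 4 was 0.22 in the loop, -0.17 in the 5′ arm and -0.61 in the 3′ arm. In hairpin 3 it was -0.29, -0.93 and -0.52, so in both the loop lay above its arms. In hairpin 5 it was -0.82, -0.50 and -0.19, with the loop lowest. In hairpins 1 and 2 the loop lay between its arms.

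A single nucleotide set the loop of hairpin 3 apart. G188, the second base of the loop, is shown in capitals in its surroundings, nucleotides 181 to 195.
Nucleotide 188: accggcgGcggagcg
In NAI 4712 of 5818 reads were mutated there (81.0%, 80.0% to 82.0%), whereas 96 of 12935 in DMSO (0.742%, 0.608% to 0.905%) and 93 of 15154 in DC (0.614%, 0.501% to 0.751%) were. Its neighbours were low in the same library. Nucleotide 187 had 0 of 5822 mutated NAI reads, which allows a rate of up to 0.0515%, beside 0.631% in DMSO and 0.374% in DC, and nucleotide 189 had 1 of 5924 (0.0169%). Nucleotide 185, a paired G on the 5′ side of the stem, was again high in NAI, at 3.68% (3.23% to 4.20%) against 0.453% in DMSO and 0.797% in DC.

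NAI rates above 10% occurred at 2 nucleotides of the stretch and at 3 of the 308 remaining ones, where the highest was 74.4%. Rates above 1% occurred at 7 and 10. G283 was the other nucleotide of the stretch with an NAI rate above 10%, in the 3′ arm of the firmest helix of hairpin 5. Its surroundings, nucleotides 276 to 290, are given with that base in capitals.
Nucleotide 283: gtggcagGcacacgg
In NAI 2391 of 3397 reads were mutated (70.4%, 68.8% to 71.9%). This site was also the highest of the stretch in the other libraries, with 1250 of 13253 reads in DMSO (9.43%, 8.95% to 9.94%) and 2132 of 15899 in DC (13.4%, 12.9% to 13.9%). For DC over DMSO the log2 ratio was 0.51 here and -0.27 at nucleotide 188. The next base, C284, had 1.19% in NAI, 0.383% in DMSO and 0.307% in DC. In the loop of hairpin 5, G276 had 0.707% in NAI, 0.242% in DMSO and 0.131% in DC.

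The 3′ arm of the closing helix held the next high NAI rates. T320 had 172 mutated reads of 3652 (4.71%, 4.07% to 5.45%), against 0.677% in DMSO and 0.857% in DC. G323, the last nucleotide of the stretch, had 151 of 3756 (4.02%, 3.44% to 4.70%), against 0.380% and 0.277%. G317 in the same arm had 0 of 3744 in NAI, which allows up to 0.0801%, although it was among the highest in DMSO (1.54%) and had 1.44% in DC. In the inner helix, G311 had 1.61% in DMSO, 2.00% in DC and 0.452% in NAI. C141 of hairpin 1 was above 1% in all 3 libraries, at 1.47% in DMSO, 1.84% in NAI and 2.72% in DC.

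At the limits of the stretch, which the fold with reactivities had set, the NAI rates changed from base to base. Outside the 5′ limit, C105 had 0.0180% and A106 4.98% in NAI, beside 0.881% and 0.244% in DMSO and 0.733% and 0.905% in DC. Inside it, C107 had 0% and C108 0.104% in NAI, beside 0.384% and 0.453% in DMSO and 0.908% and 0.669% in DC. Inside the 3′ limit, G322 had 0.648% in NAI, 0.607% in DMSO and 0.385% in DC, next to G323 above. Outside it, A324 had 0.453% in NAI, 0.385% in DMSO and 0.656% in DC, and G325 had 4.89%, 1.77% and 0.895%.

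The comparison of DC with DMSO asks where denatured, modified RNA carried more mutations than RNA given solvent alone. It does not use the rates labelled NAI, but DC and DMSO both entered the reactivity behind the choice of the stretch. The values of single nucleotides are therefore given without a test. T198 had the largest log2 ratio of DC to DMSO, and A181, its partner in the pair that closes hairpin 3, was also among the 5 largest. T198 had 13 of 13044 mutated reads in DMSO (0.0997%, 95% Wilson interval 0.0583% to 0.170%), 100 of 15378 in DC (0.650%, 0.535% to 0.790%) and 0.101% in NAI, a log2 ratio of 2.66. A181 had 13 of 12793 in DMSO (0.102%, 0.0594% to 0.174%), 63 of 14750 in DC (0.427%, 0.334% to 0.546%) and 0.0474% in NAI, a log2 ratio of 2.03. In NAI both bases stayed at 0.101% or lower. The closing pair is marked in capitals at T198 in nucleotides 191 to 205 and at A181 in nucleotides 174 to 188.
Nucleotide 198: gagcgggTggaggag
Nucleotide 181: caagaaaAccggcgg

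A153, in the multiloop just after the 5′ arm of the inner helix, had 0.208% in DMSO (0.145% to 0.299%), 0.865% in DC (0.732% to 1.02%) and 0.380% in NAI, a log2 ratio of DC to DMSO of 2.03. G303 had 0.197% in DMSO and 0.794% in DC (log2 ratio 1.99), and its partner C207 had 0.249% and 0.451%. A212 had 0.124% in DMSO and 0.448% in DC (log2 ratio 1.82), and its partner T298 had 0.414% and 0.771%. These 2 pairs lie in the 4-bp helices at the base of the branch of hairpins 4 and 5. By the Fisher's exact test above, 29 of 150 paired nucleotides (19.3%) were called higher in DC than in DMSO. This is near the 21.9% called over the whole table. Both nucleotides were called higher in 6 base pairs and only 1 of them in 17. In the loop of hairpin 4, G232 had the highest DC rate, 0.821% against 0.318% in DMSO (log2 ratio 1.36). A169 had the highest DC rate of the loop of hairpin 2, 0.317% against 0.158% in DMSO. In the loops of hairpins 3 and 5 the highest DC rates were at G190, 0.675% against 0.531%, and at G273, 0.694% against 0.801%. At A169, G190 and G273 the Wilson intervals of the 2 libraries overlapped.

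At the top of hairpin 1 most rates were lower in DC. In the segment from nucleotide 129 to 137, picked after its values were seen, the median rate was 0.580% in DMSO, 0.334% in DC and 0.267% in NAI, with a median log2 ratio of DC to DMSO of -0.73. G129 had 0.711% in DMSO and 0.318% in DC, and its partner C133 had 0.434% and 0.189%, a log2 ratio of -1.19. G131 had 1.94% in DMSO and 1.42% in DC. G130 and A135 had higher rates in DC, 0.956% against 0.476% and 0.301% against 0.207%. Further down the same hairpin, G123 in an internal loop had 1.43% in DMSO and 2.47% in DC, and C141 in the stem had a log2 ratio of DC to DMSO of 0.88. The capitals below mark G131 in nucleotides 124 to 138.
Nucleotide 131: ccctgggGcccaggg

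C133 was among the 5 nucleotides with the lowest log2 ratio of DC to DMSO, and the other 4 lay outside hairpin 1. A164, the first base of the loop of hairpin 2, had 17 of 13224 mutated reads in DMSO (0.129%) and 5 of 15083 in DC (0.0331%), a log2 ratio of -1.86. T302 had 0.386% in DMSO and 0.134% in DC (-1.50) and lies directly before G303. G197 had 0.595% and 0.261% (-1.18) and lies directly before T198. Its partner C182 went the other way, with 0.205% in DMSO and 0.360% in DC (0.80). A178, between hairpins 2 and 3, had 0.186% in DMSO and 0.0743% in DC (-1.29). At T302 and G303, and at G197 and T198, neighbouring bases thus had ratios of opposite sign.

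Over the whole stretch, unpaired nucleotides had lower rates than paired ones in each library. The medians of the 67 unpaired and 150 paired nucleotides were 0.227% and 0.389% in DMSO, 0.151% and 0.245% in NAI, and 0.298% and 0.402% in DC. Base composition moved with pairing, since 74.7% of paired but 46.3% of unpaired nucleotides were G or C. Rates also differed by base, with medians in DMSO of 0.514% at G, 0.378% at C, 0.242% at T and 0.158% at A. Unpaired and paired G had median rates of 0.670% and 0.492% in DC, with the DMSO rate at 0.525% and 0.489% and the NAI rate at 0.235% and 0.319%. Within C, the medians of the 8 unpaired nucleotides were below those of the 53 paired ones in each library. They were 0.292% and 0.384% in DC, 0.248% and 0.384% in DMSO, and 0.240% and 0.315% in NAI. Within A, the median NAI rate was 0.145% at 26 unpaired and 0.0901% at 16 paired nucleotides, and the DC rate 0.195% and 0.226%. Within T, the median DC rate was 0.166% at only 10 unpaired and 0.348% at 22 paired nucleotides, and the NAI rate 0.0964% and 0.106%. Over G and C together, unpaired minus paired medians were 0.0530 percentage points in DMSO, 0.0672 in DC and -0.0828 in NAI, from -0.162, -0.104 and -0.0934 over all bases. G made up 23 of the 31 unpaired but 59 of the 112 paired G and C nucleotides, and the part of this share in the turn in DMSO and DC was not tested. Over A and T together the NAI difference was 0.0124. By base, the DC to DMSO ratio had log2 medians of 0.50 for A, 0.20 for C, 0.14 for T and 0.04 for G in the stretch, where A was highest, and of 0.16, 0.04, 0.39 and -0.10 in the remaining nucleotides, where T was. Nucleotides of 1 RNA are not replicates, so no test was made of these differences.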

How the data were processed

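SHAPE-MaP data of hFAST from H9 cells were analysed, 1 library for each of DMSO, NAI and DC. The 22 RNA-seq samples were not analysed here. The submitters' processing notes name Bowtie2 2.1.0, bcl2fastq 2.17.1.14 and build hg19. For the program that counted mutations, the name was not given in the sources used here. The columns hold background, reagent and denatured libraries, per the file headers. They were matched to DMSO, NAI and DC, in that order, through the protocols and the header's formula. The names DMSO and NAI are not in the columns, and the NAI rates are mostly the lower, so this match is not certain. The deposited depths are read counts per nucleotide. The deposited mutation rates are a fraction of these reads, the NAI rate with a missing mark at 1 nucleotide. The authors' reactivity column is a score, the difference of the NAI and DMSO rates over that of DC. It had set the limits of the stretch, and is otherwise used only in 1 alternative fold.

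The product of rate and depth lay at most 0.0348 from a whole number, so mutated reads were recovered by rounding. No molecular identifiers are mentioned, so the 95% Wilson intervals, and the limit of 3 counts for a count of 0, cover counting error only. Fisher's exact test (two-sided, scipy 1.17.1) was run over all 546 or 547 nucleotides with reads in both libraries, with Benjamini-Hochberg adjustment at 0.05, and only counts of calls are given. Log2 ratios had 0.5 reads added. The stretch was folded with ViennaRNA 2.7.2 at 37 °C, and helices were counted from 4 bp at a mean probability of at least 0.8. Python 3.11.15, numpy 2.4.6 and pandas 2.3.3 were used, and the scripts were tested on simulated data. Sequences are from the deposited table, and genome positions from RefSeq tables of GRCh38.p14.

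Members, lists and rules were chosen with earlier results of these data known. Named are every hairpin and counted helix, the 6 highest NAI and 4 highest DMSO and DC rates, the 5 largest ratios each way for each pair of libraries, the highest DC rate of each loop and the 2 nucleotides on each side of each limit. Neighbours, partners and exceptions named beside them were chosen after their values were seen.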

Additional observations from a re-analysis of the deposited data

How the results depend on the processing

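Of 141 results recomputed under another setting, 119 kept their side of the threshold or moved by less than their limit. With a Bonferroni correction, the nucleotides higher and lower in NAI than DMSO numbered 6 and 34, in DC than DMSO 22 and 7, and in NAI than DC 9 and 50. With at least 5000 reads in each library, 135 nucleotides remained, of which 6 were higher in NAI than DMSO and 9 higher than DC. Requiring a 2-fold ratio left 24 higher and 7 lower in DC. Without nucleotides 107 to 131, an alternative chosen after seeing the data, 42 of 192 were lower in NAI than DMSO. The DMSO median of the stretch minus that of the remaining nucleotides was 0.0243 percentage points, and -0.108 against nucleotides 5′ of the stretch only. The NAI difference was 0.0175, and 0.418 with reads pooled. The stem of hairpin 3 had a probability of 0.695 at 50 °C, 0.717 with Andronescu parameters, 0.787 in all of hFAST and 0.122 with reactivities. That of hairpin 1 had 0.670 with Andronescu parameters and 0.0197 with pairs of at most 100 nucleotides. Unpaired minus paired medians in DMSO were -0.0529 for A and T only, and for G and C only 0.0530 in DMSO and 0.0672 in DC, against -0.162 and -0.104 over all bases. For the other changes listed, the cause was not tested beyond what fewer nucleotides or a stricter rule give by construction.

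The counts of helices, 9 in the main fold, ran from 6 to 11 over the 11 alternatives. No paired analysis was possible because each treatment has 1 library and its columns carry no replicate number. Leaving out a library was not possible for the same reason. Depth limits NAI most. At its lowest depth in the stretch, 3305 reads, a count of 0 allows up to 0.0908%, beside 0.0244% in DMSO and 0.0222% in DC at theirs.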
